A study of Mus musculus with 27 samples.

Results

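The response to Wnt3a was measured by RNA sequencing in 2 lines of mouse mammary tumour cells with the genotype dHD1_fl, called line 1 and line 2. The comparison rests on 4 of the 27 libraries of the series, chosen by their labels as 1 untreated and 1 Wnt3a library of each line. Both lines came from thoracic mammary gland tumours of female MMTV-PyMT mice on the FVB/N background, where a mammary tumour virus promoter drives a viral oncogene in mammary epithelium. The lines derived from different mice, so each is 1 biological replicate. All 4 libraries share the deltaHD1/fl alleles of Bcl9 and Bcl9L, that is, 1 allele that lacks the function of HD1, the domain that binds Pygopus, and 1 floxed wild-type allele that was still present. Wnt3a was given at 100 ng/ml for 3 days, and the untreated cells are labelled with 4 days. Per the labels the cells of both arms were seeded and harvested together, but the labelled duration and the treatment cannot be told apart. The other 7 lines carried dHD1_rec, dHD2_fl or dHD2_rec, where rec marks removal of the floxed allele and dHD2 a mutated β-catenin-binding domain. The rec lines were made by infecting floxed lines with a Cre virus, and which line each came from is not given in the sources used here. The labels describe 2 mice per genotype, while dHD2_rec has 3 lines. The other 7 lines may therefore share their origin with each other or with lines 1 and 2, and counts over them are not counts of independent lines. The question was which genes differed with Wnt3a in both lines and which in line 1 alone.

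In canonical Wnt signalling a secreted Wnt protein binds a Frizzled receptor and an Lrp5 or Lrp6 coreceptor, and the destruction complex of Axin, Apc and Gsk3 then no longer degrades β-catenin. β-catenin enters the nucleus, binds TCF/LEF transcription factors and recruits Bcl9, Bcl9L and Pygopus. Its targets include feedback inhibitors, among them Axin2, a scaffold of the destruction complex, and Notum, a secreted enzyme that inactivates Wnt proteins. In the mammary gland the pathway is known for its part in basal and progenitor cells.

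Levels are CPM, the reads of a gene per M reads assigned to genes, and for each gene the untreated library is given before the Wnt3a library. A log2 difference in 1 line is log2(CPM + 1) with Wnt3a minus log2(CPM + 1) without it, which understates the difference of low genes. The 4 libraries held 21.86 to 31.54 M reads, within the 21.86 to 33.69 M of the series. Line 1 had 21.86 M untreated and 31.54 M with Wnt3a, and line 2 had 26.81 and 28.15 M, so depth differed more between the arms of line 1. A gene was tested if it reached 1 CPM in at least 2 of the 27 libraries, which 13270 of 24454 genes did, and 11184 were not tested.

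The lines are labelled as epithelial, and marker genes placed them far apart. In line 1, 10 of 12 epithelial markers reached 1 CPM in both libraries, and in line 2 0 of 12 did in either. Cdh1 (E-cadherin) stood at 606 and 544 CPM in line 1 and 0.522 and 0.107 CPM in line 2. Krt8, a keratin of simple epithelia, stood at 1256 and 1821 CPM in line 1 and 0.336 and 0.178 CPM in line 2. Vim (vimentin), an intermediate filament of mesenchymal cells, stood at 198 and 74.0 CPM in line 1 and 4188 and 3467 CPM in line 2. Line 2 was thus under 1 CPM for each of these 12 markers with and without Wnt3a. Of 8 basal markers, 4 reached 1 CPM in each library, with a summed level of 3524 and 10474 CPM in line 1 and 550 and 452 CPM in line 2. Most of it was the basal keratin Krt14, at 3491 and 10458 CPM in line 1 and 356 and 270 CPM in line 2. The 10 mesenchymal markers all reached 1 CPM in both line 2 libraries, against 7 and 6 in line 1. The summed level of 8 fibroblast markers was 2649 and 4157 CPM in line 2 and 32.7 and 22.6 CPM in line 1, and the collagen gene Col3a1 had 0 reads in both line 1 libraries and 608 and 1564 CPM in line 2. Of 7 immune markers 2 were tested, with a median log2 difference of 2.1 in line 1 and 0.02 in line 2. The summed level of the 7 was 14.9 and 44.2 CPM in line 1 and 16.1 and 14.3 CPM in line 2. Of the 2 tested, 1 was at least 2-fold higher in line 1. The leukocyte gene Ptprc was at 0.0457 and 0 CPM in line 1 and 0 and 0 CPM in line 2, and the summed level of 4 adipocyte markers was at most 0.0373 CPM in each library. In bulk libraries, fewer cells of a type and less RNA per cell cannot be told apart. The part of these marker differences in the results was not tested.

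Bcl9, one of the targeted genes, stood at 34.0 and 104 CPM in line 1 and 66.0 and 80.1 CPM in line 2, and Bcl9l at 172 and 155 CPM in line 1 and 323 and 268 CPM in line 2. Reads over the whole gene do not check a mutated domain. Neither gene passed the test of the Wnt3a response.

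Axin2 (chr11:108917828-108950783, mm10) gave the clearest response. It had 7 and 2549 reads in line 1 (0.32 and 80.8 CPM) and 39 and 1617 reads in line 2 (1.45 and 57.4 CPM). Both Wnt3a libraries lay far above both untreated ones. Over both lines it rose by 5.26 (SE 0.41, limma adjusted p = 3.28e-06) on the log2 scale, n = 2 lines. It was also higher with Wnt3a in 7 of the other 7 lines, by 3.11 to 4.42. Ahr (chr12:35497979-35534989, mm10), the aryl hydrocarbon receptor, a ligand-activated transcription factor of the xenobiotic response, stood at 29.5 and 110 CPM in line 1 and 27.1 and 266 CPM in line 2. Its groups did not overlap either, and it rose by 2.55 (SE 0.41, limma adjusted p = 0.0494). These 2 genes were the full set that passed both limits, an adjusted p no higher than 0.05 and a 2-fold change (0.0151% of 13270), and by limma 212 genes had an unadjusted p under 0.05. This fit held no term for the line. Axin2 kept its call when the line was added as a block (limma adjusted p = 0.000129), and Ahr lost it (limma adjusted p = 0.174). With the block, 1183 genes had an unadjusted p under 0.05 by limma, and Axin2 alone was called. Fitted on the 4 libraries alone, 0 genes were called by limma and 69 had an unadjusted p under 0.05. Without line 1 the number called was 5 (Axin2, Ahr, Ndnf, Pappa2 and Nrxn2, the last chosen after its values were seen), and without line 2 it was 83, where the lone line was assumed to vary like the other groups.

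TCF/LEF factors bind a short motif, so the sequence before the start is shown for the 2 genes with the largest shared differences, Axin2 and Stra6, the receptor for retinol-binding protein. The motif was searched on both strands, in the form CTTTGAA or the form CTTTGAT, and likewise in the form CTTTGTA or the form CTTTGTT. These forms cannot overlap on 1 strand. The windows are the 250 bases before a RefSeq start (GRCm38.p6), for Axin2 chr11:108920099-108920348, + strand, and for the first Stra6 window in that table chr9:58128838-58129087, + strand. Neither held the letters searched:
Axin2: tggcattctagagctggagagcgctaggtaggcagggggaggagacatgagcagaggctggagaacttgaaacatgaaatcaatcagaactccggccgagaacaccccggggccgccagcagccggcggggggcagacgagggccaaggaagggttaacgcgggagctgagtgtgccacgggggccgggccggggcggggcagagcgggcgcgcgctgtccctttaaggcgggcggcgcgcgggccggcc
Stra6: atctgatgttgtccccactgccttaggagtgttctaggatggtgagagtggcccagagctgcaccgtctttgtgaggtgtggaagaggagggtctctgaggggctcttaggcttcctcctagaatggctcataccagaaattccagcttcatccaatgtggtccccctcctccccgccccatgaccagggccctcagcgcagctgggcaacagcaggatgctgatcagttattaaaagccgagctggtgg

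Another Stra6 window held 1 motif (chr9:58129193-58129221, + strand, 145 bases before the start). It is shown beside the sites of Serpinb2, a serine protease inhibitor (chr1:107511325-107511353, + strand, 87 bases before the start), Ptpn22, a tyrosine phosphatase (chr3:103860160-103860188, + strand, 106 bases before the start), and Tec, a tyrosine kinase (chr5:72868574-72868602, - strand, 143 bases before the start), all higher in both lines, with the motif in capitals:
Stra6: gaaactcagccATCAAAGccctggcttct
Serpinb2: atgttgaatcaTACAAAGaatacaaatta
Ptpn22: tagccaagtttCTTTGTTgagaaaggaag
Tec: cttccctttggCTTTGAAatcgcggaagg
Of the 52 genes at least 2-fold higher in both lines, 39 had a window. Of these 8 held the motif (20.5%), against 12.2% of the 10461 tested genes with a window and 16.8% of all 27025 genes with a window. By window it was 9 of 54 (16.7%), against 1369 of 13353 windows of tested genes (10.3%) and 14.8% of all 32851 windows. Of the genes lower in both lines, 39 had a window and 3 held the motif (7.69%). For the classes of 1 line alone, defined below, the share of genes was 14.2% for line 1 higher, 14.2% for line 1 lower and 18.4% for line 2 higher. A match is a description of the letters, and binding was not measured.

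Across all genes, far more differed in line 1 than in line 2. At least 2-fold in line 1 were 1986 genes (15%), 572 higher (4.31%) and 1414 lower (10.7%), and in line 2 333 genes (2.51%), 160 higher (1.21%) and 173 lower (1.3%). After the correction for GC content and length given below, line 1 had 770 higher (5.8%) and 477 lower (3.59%). The other counts here are uncorrected. In both lines 52 genes were at least 2-fold higher (0.392%) and 56 lower (0.422%), and 22 went in opposite directions (0.166%). Line 1 alone, that is, at least 2-fold in line 1 with a log2 difference under 0.5 in line 2, held 421 genes higher (3.17%) and 1230 lower (9.27%). Line 2 alone held 64 higher (0.482%) and 74 lower (0.558%). Between these limits lay 270 genes (2.03%), and 11081 (83.5%) were under 2-fold in both lines. With 1 library per line and treatment, these classes are descriptions with no test. Just inside the limit for both lines were Llgl2 (1.69 and 1.0 in lines 1 and 2) and Hgf (-1.0 and -1.83), and just outside were Mustn1 (0.99 and 1.43) and Csdc2 (-2.52 and -1.0, whose unrounded line 2 value missed the limit). The log2 differences of the lines correlated with r = 0.18 across 13270 genes, which are not independent replicates.

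**Figure D1:**
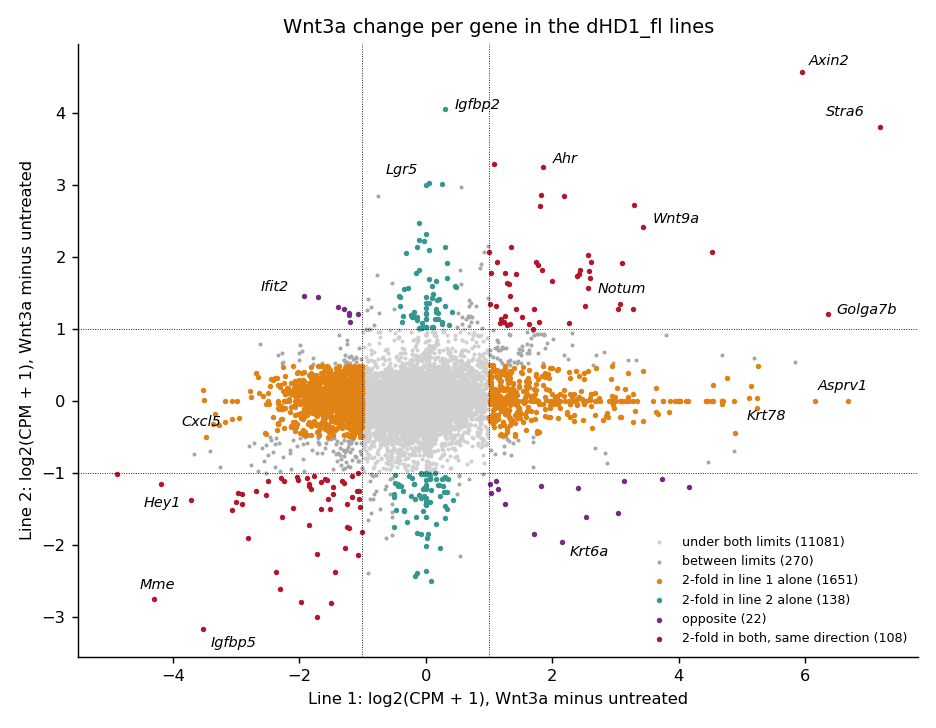
Each point is 1 of 13270 tested genes, with the log2(CPM + 1) difference with Wnt3a in line 1 on the x axis and in line 2 on the y axis. Points spread much further along the line 1 axis (SD 0.76) than along the line 2 axis (SD 0.35), and Axin2 and Stra6 stand apart at the upper right.

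Beside Axin2 and Ahr, the genes higher in both lines with the largest smaller difference were Stra6, Krt76, Wnt9a, Grhl3, Mmp24, Col7a1, Fam167a and Cemip. Stra6 stood at 6.95 and 1159 CPM in line 1 and 1.42 and 32.7 CPM in line 2. It was higher with Wnt3a in each line, by sizes that differed (7.19 and 3.80), and in 7 of the other 7 lines, by 0.61 to 6.84. The test over both lines gave 5.50 (SE 1.10, limma adjusted p = 0.399, and 0.121 with the line as a block). Wnt9a, a Wnt ligand, stood at 7.96 and 96.2 CPM in line 1 and 16.4 and 91.8 CPM in line 2. It was higher in 7 of the other 7 lines, and its test gave 2.93 (SE 0.59, limma adjusted p = 0.399, and 0.283 with the line as a block). Fam167a stood at 78.2 and 487 CPM in line 1 and 70.1 and 271 CPM in line 2, and it was higher in 7 of the other 7 lines. Of the 52 genes, 23 were higher in all 7 other lines (44.2%), against 2.8% of all tested genes.

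Among 27 tested Wnt feedback and target genes, 6 were at least 2-fold higher and 2 lower in line 1, and 6 higher and 0 lower in line 2. Over all tested genes the shares were 4.31% higher and 10.7% lower in line 1, and 1.21% and 1.3% in line 2. Axin2 and Notum were in both counts. Notum stood at 84.1 and 503 CPM in line 1 and 432 and 1284 CPM in line 2, so untreated line 2 was already close to treated line 1. In line 1 the others higher were Rnf43, a ligase that removes Frizzled receptors (1.01 and 4.09 CPM), the membrane inhibitor Apcdd1 (1.37 and 5.86 CPM), the Dkk receptor Kremen1 (44.9 and 97.0 CPM) and the cyclin gene Ccnd1 (887 and 1964 CPM). In line 2 they were Nkd2, Lgr5, Lgr6 and Tcf7. Nkd2, which inhibits Dishevelled, stood at 608 and 553 CPM in line 1 and 13.8 and 64.6 CPM in line 2, high in line 1 in both arms. Lgr5, a receptor for R-spondins, had 0 and 1 reads in line 1 and 37 and 521 in line 2. Tcf7, a TCF/LEF factor, stood at 35.3 and 38.9 CPM in line 1 and 15.1 and 34.5 CPM in line 2. The 2 lower in line 1 were the receptor genes Met (291 and 61.0 CPM) and Fzd7 (439 and 175 CPM). Sp5 and Dkk1 had 0 reads in all 4 libraries, and Lef1 at most 0.127 CPM.

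Of 33 Wnt ligands, receptors and secreted modulators, 4 were at least 2-fold higher and 3 lower in line 1, and 5 higher and 1 lower in line 2 (all genes 4.31% and 10.7%, and 1.21% and 1.3%). The ligands Wnt4 and Wnt7b were higher in line 1 only by the 2-fold limit, with Wnt4 at 37.7 and 165 CPM in line 1 and 39.9 and 54.6 CPM in line 2 and Wnt7b at 434 and 1100 CPM in line 1 and 9.21 and 12.3 CPM in line 2. Lgr4, another R-spondin receptor, was lower in both lines at 49.4 and 23.0 CPM in line 1 and 122 and 60.2 CPM in line 2, and in 7 of the other 7 lines. Its differences of -1.07 and -1.01 were at the 2-fold limit, and were under it after a correction for GC content and length (-0.69 and -0.98) and with median-of-ratios scaling (-0.83 and -0.97). Of 31 genes of the β-catenin and destruction complexes, 2 were higher and 1 lower in line 1, and 2 higher and 0 lower in line 2, and the medians were -0.02 and 0.03. The destruction complex gene Apc, the 1 lower in line 1, stood at 135 and 42.5 CPM in line 1 and 92.7 and 105 CPM in line 2. Its line 1 difference of -1.65 became -0.96, under 2-fold, after that correction, which left 0 of the 31 genes lower. The medians over all tested genes were -0.16 in line 1 and -0.02 in line 2.

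Ahr was the 1 gene of 16 in its pathway list at least 2-fold higher in line 2, where 0 were lower, and in line 1 4 were higher and 2 lower. Of 14 retinoid pathway genes, 4 were higher and 0 lower in line 1, and 1 higher and 1 lower in line 2. For both lists, all genes gave 4.31% and 10.7% in line 1, and 1.21% and 1.3% in line 2. Beside Stra6, line 1 had higher levels of Cyp26b1, which degrades retinoic acid (15.9 and 104 CPM, against 4.59 and 3.3 CPM in line 2), and of Aldh1a3, which makes it (1.78 and 16.7 CPM).

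The Notch receptors Notch1 and Notch3 went in opposite directions to each other in both lines. Notch3 stood at 20.6 and 75.4 CPM in line 1 and 1.53 and 17.3 CPM in line 2. Notch1 stood at 256 and 102 CPM in line 1 and 219 and 101 CPM in line 2, and it was lower in 7 of the other 7 lines. Hey1, a Notch target that represses transcription, was lower in both lines at 24.7 and 0.951 CPM in line 1 and 5.03 and 1.31 CPM in line 2. The list of 13 Notch genes had 1 higher and 2 lower in each line (all genes 4.31% and 10.7% in line 1, and 1.21% and 1.3% in line 2).

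Further genes higher in both lines had different roles. Col7a1, the collagen of anchoring fibrils, stood at 2.2 and 17.9 CPM in line 1 and 9.81 and 42.9 CPM in line 2. Has2, which makes hyaluronan, stood at 10.5 and 61.1 CPM in line 1 and 11.7 and 43.7 CPM in line 2, and Cemip, which takes part in degrading it, at 25.6 and 230 CPM in line 1 and 33.2 and 128 CPM in line 2. Tgfbr2, a TGF-β receptor, stood at 86.0 and 187 CPM in line 1 and 313 and 784 CPM in line 2 and was higher in 7 of the other 7 lines. Grhl3, a transcription factor of surface epithelium, stood at 7.46 and 37.7 CPM in line 1 and 0.298 and 8.38 CPM in line 2, and the keratin Krt76 at 0.412 and 12.9 CPM in line 1 and 9.85 and 70.6 CPM in line 2. Krt76 and Grhl3 were thus higher also in line 2, where the 12 epithelial markers were under 1 CPM.

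The genes lower in both lines were led by Igfbp5, Mme, Adamts9, Steap4, Rassf4, Apln, Lmcd1, Gfra1, Mcam and Cyp2f2. Igfbp5, which binds insulin-like growth factors, stood at 55.4 and 3.93 CPM in line 1 and 76.2 and 7.6 CPM in line 2, and its relative Igfbp3 at 22.6 and 7.32 CPM in line 1 and 138 and 18.9 CPM in line 2. Both were lower in each line, Igfbp3 also in 7 of the other 7 lines and Igfbp5 in 5 of the other 7 lines. Mme, a membrane peptidase of myoepithelial cells, stood at 52.5 and 1.71 CPM in line 1 and 124 and 17.4 CPM in line 2. Receptors were among them: Gfra1, a coreceptor for GDNF, stood at 2.61 and 0.0951 CPM in line 1 and 40.3 and 4.12 CPM in line 2, and Lifr, the receptor for leukaemia inhibitory factor, at 30.5 and 3.93 CPM in line 1 and 30.8 and 12.4 CPM in line 2. The first Wnt3a value of Gfra1 is 3 reads. Id4, a repressor of bHLH factors, stood at 64.3 and 21.2 CPM in line 1 and 14.3 and 6.11 CPM in line 2, and its line 1 difference of -1.56 became -0.83, under 2-fold, after the GC and length correction. The metabolic coactivator Ppargc1a stood at 22.8 and 0.317 CPM in line 1 and 3.69 and 1.1 CPM in line 2. The mean of the other 7 lines was lower for 55 of these 56 genes, against 59.2% of all tested genes, and all 7 were lower for 22 (39.3%, against 5.0%). For the genes higher in both lines the mean was higher for 52 of 52, against 40.8%. For the classes of line 1 alone, the mean of the other 7 lines also mostly went the same way. It was higher for 379 of the 421 higher genes (90.0%) and lower for 1120 of the 1230 lower genes (91.1%). All 7 lines went the same way for 48 (11.4%) and 76 (6.18%) of these genes.

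**Figure D2:**
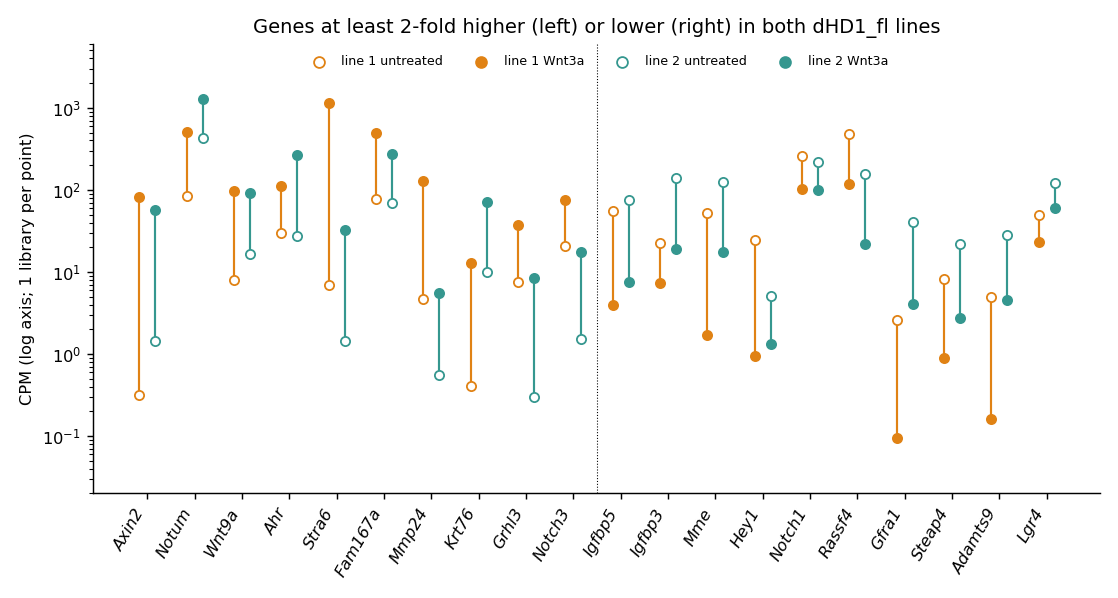
Levels in CPM on a log axis of genes at least 2-fold higher or lower in both lines, with untreated and Wnt3a libraries of line 1 and line 2 as separate points. Within each line the Wnt3a point lies on the same side of the untreated point, although the starting levels differ between lines.

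Genes of the cornified envelope, the protein shell of the outermost skin cells, were higher in line 1. This list was chosen with earlier results of these data known, so its shares are descriptions. Of 23 tested keratinocyte and cornified envelope genes, 17 were at least 2-fold higher (all genes 4.31%) and 0 lower in line 1, with a median log2 difference of 2.52, and 22 of 23 were higher by any amount (all genes 33.0%). Of the 23, 9 were in the class of line 1 alone (all genes 3.17%), 4 were opposite, 3 lay between the limits and Sbsn was higher in both lines. In line 2, 1 was higher and 4 lower (all genes 1.21% and 1.3%), with a median of -0.05, but 13 of the 23 were under 1 CPM in both line 2 libraries. Sprr1a, a cornified envelope precursor, stood at 9.1 and 302 CPM in line 1 and 0.41 and 0.0355 CPM in line 2, and Krt6b, a keratin of stressed epithelium, at 67.7 and 992 CPM in line 1 and 0.112 and 0 CPM in line 2. Tgm1, the enzyme that cross-links the envelope, stood at 99.1 and 256 CPM in line 1 and 0.186 and 0.32 CPM in line 2. The largest differences in the class of line 1 alone included genes outside the list. The aspartic protease gene Asprv1 stood at 3.16 and 295 CPM in line 1 and had 0 reads in both line 2 libraries, a floor of 0.112 and 0.107 CPM at 3 reads. The keratin Krt78 stood at 1.33 and 86.7 CPM in line 1 and 0.112 and 0.142 CPM in line 2 and Krt90 at 7.14 and 835 CPM in line 1 and 0.0373 and 0.0355 CPM in line 2. The kallikrein proteases Klk7 (3.48 and 168 CPM in line 1) and Klk14 (13.2 and 495 CPM) and the protease inhibitor Csta1 (1.83 and 81.5 CPM) were also among the 10 largest. Krt14, a keratin of basal cells, was high in both lines and higher with Wnt3a in line 1, at 3491 and 10458 CPM in line 1 and 356 and 270 CPM in line 2. Keratins, Sprr genes and kallikreins are families with similar copies, so reads shared between copies make single values uncertain. The medians of the cornified envelope list in the other lines were 0.00 and 0.00 in dHD1_rec, 2.00 and 1.72 in dHD2_fl, and 0.00, 0.62 and 0.21 in dHD2_rec. Over the class, 217 of the 421 genes higher in line 1 alone were under 1 CPM in both line 2 libraries.

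Interferon-stimulated genes, which cells switch on against viruses, were lower in line 1. This list too was chosen with earlier results of these data known. Of 24 tested, 18 were at least 2-fold lower (all genes 10.7%) and 0 higher in line 1, 24 of 24 were lower by any amount (all genes 64.8%), and the median was -1.44. Of the 24, 14 were in the class of line 1 alone (all genes 9.27%) and 2 were opposite. In line 2, 3 were higher and 0 lower (all genes 1.21% and 1.3%), with a median of 0.12, and 8 were under 1 CPM in both libraries. Oas2, an enzyme that senses double-stranded RNA, stood at 22.7 and 3.27 CPM in line 1 and 0.0746 and 0.0355 CPM in line 2. Bst2, which tethers budding virus, stood at 86.2 and 16.9 CPM in line 1 and 7.98 and 6.57 CPM in line 2, and the ubiquitin-like Isg15 at 46.3 and 18.1 CPM in line 1 and 6.9 and 9.41 CPM in line 2. Irf7, a factor that drives interferon genes, stood at 42.4 and 13.1 CPM in line 1 and 3.62 and 4.94 CPM in line 2. Medians in the other 7 lines were between -0.47 and -0.07.

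The interferon-stimulated response element is shown because it is the motif these genes are known for. It was searched as GAAA, any 2 bases and GAAA again, on both strands, in the same 250-base windows, and matches can overlap each other. Of the 24 genes, 19 had a window and 11 held the motif (57.9%), against 3.07% of tested genes with a window. By window it was 11 of 22, against 2.53% of the windows of tested genes and 2.98% of all windows. Sites of Isg15 (chr4:156200877-156200906, - strand, 78 bases before the start), Rsad2 (chr12:26456553-26456582, - strand, 120 bases before the start), Oas3 (chr5:120777715-120777744, - strand, 75 bases before the start) and Ifit1 (chr19:34640775-34640804, + strand, 104 bases before the start) are given with the motif in capitals:
Isg15: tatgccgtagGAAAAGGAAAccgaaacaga
Rsad2: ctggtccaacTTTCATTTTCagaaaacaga
Oas3: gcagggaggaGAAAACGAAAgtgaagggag
Ifit1: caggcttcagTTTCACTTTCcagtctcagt

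Proliferation genes were lower in line 1 by smaller amounts. All 26 were lower (all genes 64.8%), 4 of them at least 2-fold (all genes 10.7%), with a median of -0.63, while in line 2 0 passed 2-fold and the median was -0.05. The line 1 median was -0.38 with median-of-ratios scaling. In the other 7 lines it ran from -0.50 in line 2 of dHD2_fl to 0.95 in line 2 of dHD2_rec, and was below 0 in both dHD2_fl lines only. Mki67, a marker of cycling cells, stood at 250 and 47.5 CPM in line 1 and 269 and 188 CPM in line 2. Top2a, a topoisomerase of dividing cells, stood at 597 and 124 CPM in line 1 and 1681 and 1848 CPM in line 2. The cell cycle inhibitor Cdkn1a was higher in line 1, at 133 and 388 CPM in line 1 and 82.6 and 115 CPM in line 2. Cholesterol synthesis genes differed by little in opposite directions: 17 of 19 were higher in line 1 (all genes 33.0%, median 0.57) and 18 of 19 lower in line 2 (all genes 54.7%, median -0.47). None passed 2-fold in either line, and 4 did in line 1 after the GC and length correction described next.

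**Figure D3:**
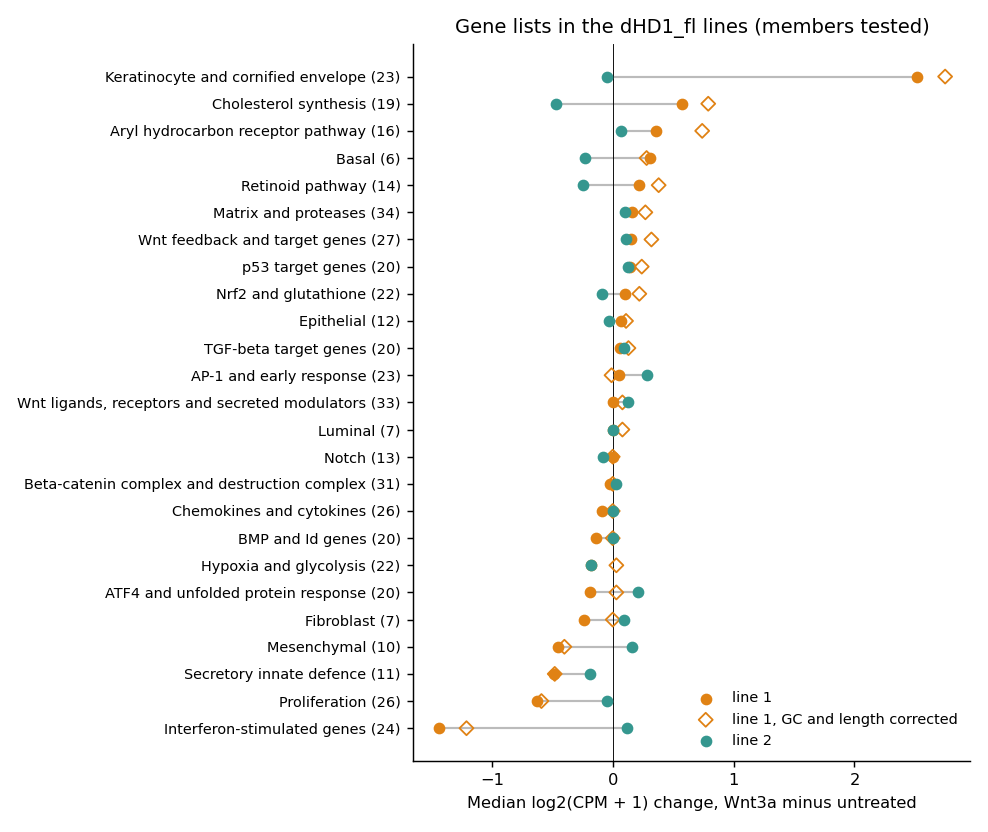
Median log2(CPM + 1) difference with Wnt3a over the tested genes of each list, for line 1, line 1 after the GC and length correction (open diamonds) and line 2, with the number of genes beside the name. Of the lists shown, those with at least 5 tested genes, cornified envelope genes (2.52) and interferon-stimulated genes (-1.44) lie furthest from 0 in line 1, and both lists lie near 0 in line 2. The lists were chosen with earlier results of these data known.

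**Figure D4:**
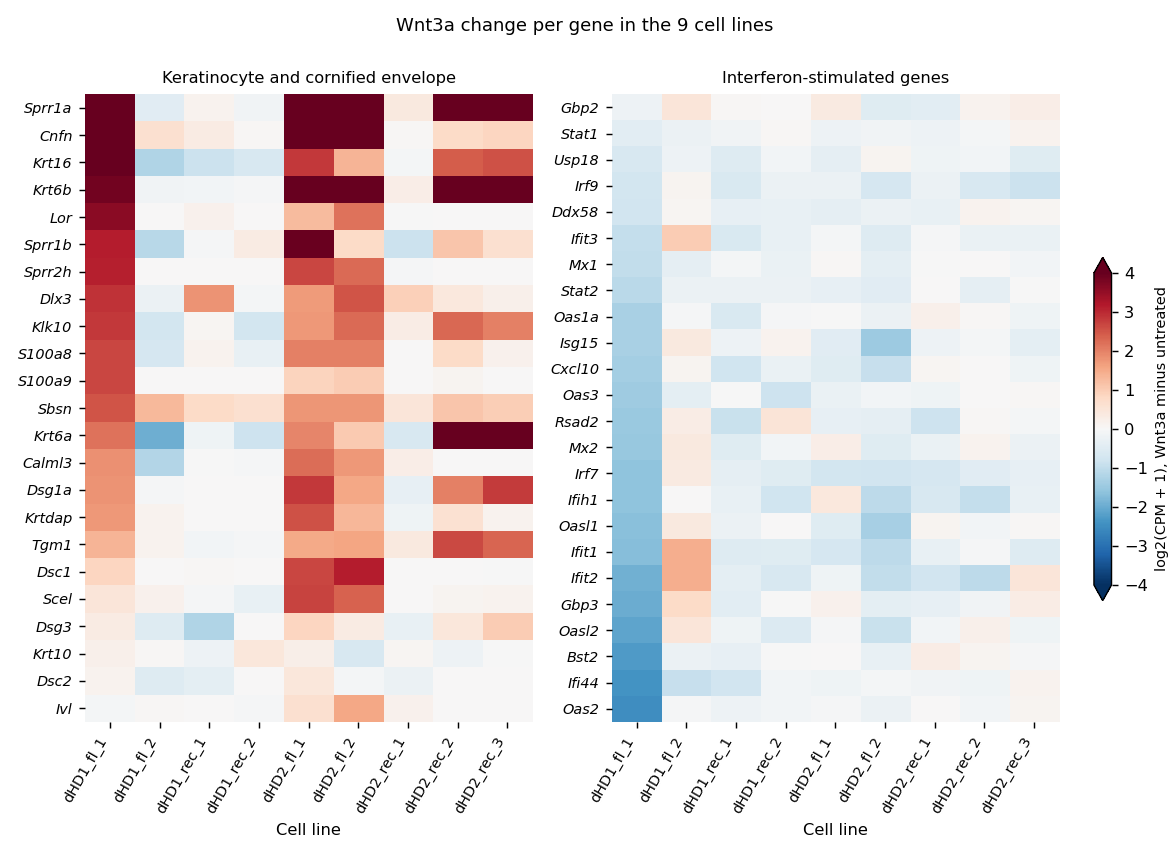
Log2(CPM + 1) differences of single genes of selected lists in each line, with colours that saturate at 4 in either direction. Most cornified envelope genes are higher with Wnt3a in line 1 and in both dHD2_fl lines, several also in 2 dHD2_rec lines, and most interferon-stimulated genes are lower in line 1. The interferon medians are also below 0, by less, in the other 7 lines (-0.47 to -0.07).

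The genes lower in line 1 alone were low in GC content. GC content and length of each gene's longest transcript were known for 96.3% of tested genes. Of the 1207 genes with a value in this class, 902 (74.7%) had a GC content of at most 45.0%, against 25% of tested genes and 26 of 416 (6.25%) of those higher in line 1 alone. In line 1 the log2 difference had a Spearman correlation of 0.47 with GC content and of -0.21 with length over 9982 genes, and in line 2 of 0.03 and 0.18, as a description across genes. The correlation with GC content was 0.60 in line 1 of dHD2_rec, 0.44 in line 1 of dHD1_rec and -0.38 in line 3 of dHD2_rec, and ran from -0.38 to 0.60 over the other 7 lines. The median of genes with at most 45.0% GC was -0.74 in line 1 and -0.01 in line 2. After correction for GC content and length, 770 genes were at least 2-fold higher in line 1 (5.8%) and 477 lower (3.59%). Then 352 genes were lower in line 1 alone, 344 of them among the 1230, and 588 were higher, 406 of them among the 421. The share higher thereby went from 25.5% to 62.6%, and was 41.9% with median-of-ratios scaling. The shared classes moved less, to 57 higher (50 in common) and 42 lower (42 in common). These 3 lists kept the sign of their line 1 median, with 19 cornified genes higher (median 2.75), 16 interferon genes lower (median -1.21) and a proliferation median of -0.59. The medians of the hypoxia and glycolysis list (-0.18 to 0.03), the ATF4 and unfolded protein response list (-0.19 to 0.03) and the early response list (0.05 to -0.01) changed sign. What GC content stands for in line 1 was not tested.

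**Figure D5:**
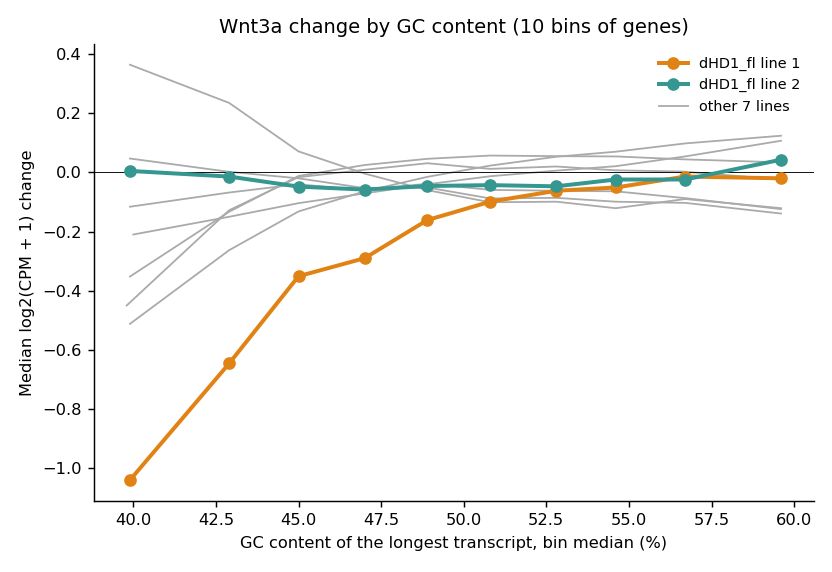
Median log2(CPM + 1) difference with Wnt3a in 10 bins of genes by GC content, for each line. Line 1 runs from -1.04 in the lowest bin (39.9% GC) to -0.02 in the highest (59.6% GC), and line 2 stays within 0.06 of 0.

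Named examples lower in line 1 alone include secreted and membrane proteins. Cxcl5, a neutrophil chemokine, stood at 400 and 35.3 CPM in line 1 and 219 and 155 CPM in line 2. The semaphorin Sema6a stood at 62.3 and 4.47 CPM in line 1 but under 1 CPM in both line 2 libraries (0.224 and 0.355 CPM). Rragd, a GTPase of nutrient sensing, stood at 18.5 and 0.729 CPM in line 1 and likewise at only 0.522 and 0.533 CPM in line 2. All 3 remained over 2-fold lower after the correction, Cxcl5 with the larger shift, from -3.47 to -2.53, and Sema6a and Rragd at -3.25 and -3.28. Enpp1, an ectoenzyme that makes pyrophosphate, stood at 21.0 and 1.14 CPM in line 1 and 6.12 and 4.69 CPM in line 2. The matrix protein Postn stood at 12 and 0.285 CPM in line 1 and 1.45 and 1.17 CPM in line 2. Of the other 7 lines, 5 were lower for Cxcl5, 5 for Sema6a, 3 for Rragd, 7 for Enpp1 and 6 for Postn.

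The difference between the lines was tested in 1 fit with all libraries, where the spread came from the other 7 lines and each dHD1_fl library was assumed to vary like these. The p-values thus hold no spread between replicates of dHD1_fl. limma called 72 genes (0.543%), 63 higher in line 1 (0.475%) and 9 lower (0.0678%), with 1432 at an unadjusted p under 0.05. edgeR on the recovered reads called 0, with 1104 at an unadjusted p under 0.05. Of the 63 genes, 52 were under 1 CPM in both line 2 libraries, 55 were in the class of line 1 alone and 5 in the cornified envelope list. The difference of Krt78 was estimated at 5.20 (SE 0.29, limma adjusted p = 1.37e-05) and that of Calm4, a calmodulin-like protein of skin, at 4.75 (SE 0.27, limma adjusted p = 1.37e-05). That of Asprv1 was 6.15 (SE 0.94, limma adjusted p = 0.0138). Golga7b was higher in both lines but much more in line 1, at 1.05 and 168 CPM in line 1 and 1.27 and 4.26 CPM in line 2, a difference of 5.15 (SE 0.47, limma adjusted p = 0.000286). Among the 9 lower genes, the estimate was, for Sema5a, -3.62 (SE 0.34, limma adjusted p = 0.000409), for the collagen Col16a1 -2.93 (SE 0.38, limma adjusted p = 0.00426) and for Oas2 -2.42 (SE 0.25, limma adjusted p = 0.00069). Col16a1 stood at 158 and 15.6 CPM in line 1 and 172 and 136 CPM in line 2. For B2m, the light chain of MHC class I, the difference of -1.22 (SE 0.21, limma adjusted p = 0.0299) was lost after the GC correction (adjusted p = 0.938).

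Of the 22 genes in opposite directions, 14 were higher in line 1 and lower in line 2, and 8 the reverse. The former held keratinocyte genes. Krt6a stood at 111 and 497 CPM in line 1 and 139 and 34.8 CPM in line 2 and Krt16 at 58.8 and 1066 CPM in line 1 and 34.5 and 14.5 CPM in line 2, both keratins of stressed epithelium. Cdsn, a protein of corneodesmosomes, stood at 0.778 and 13.7 CPM in line 1 and 94.7 and 31.4 CPM in line 2. The latter held Ifit1, an interferon-stimulated gene, at 18.1 and 4.85 CPM in line 1 and 2.31 and 7.99 CPM in line 2, and Ptgs2, which makes prostaglandins, at 81.1 and 38.2 CPM in line 1 and 82.0 and 191 CPM in line 2. After the GC correction the 14 remained opposite and 4 of the 8 did, with Ptgs2 at -0.01 in line 1.

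Line 2 alone was smaller and partly rested on genes at very low levels in line 1. In both line 1 libraries, 38 of its 64 higher and 39 of its 74 lower genes were under 1 CPM. Igfbp2, which binds insulin-like growth factors, stood at 8.05 and 10.2 CPM in line 1 and 108 and 1817 CPM in line 2. Irs1, an adaptor of the insulin receptor, stood at 80.5 and 75.1 CPM in line 1 and 21.1 and 122 CPM in line 2, and Lrrc32, which holds latent TGF-β, at 0.137 and 0.349 CPM in line 1 and 0.298 and 9.45 CPM in line 2. Among those lower, the glutamate transporter Slc1a3 stood at 0.0915 and 0 CPM in line 1 and 154 and 28.5 CPM in line 2, the integrin Itga11 at 0 and 0 CPM in line 1 and 36.0 and 6.14 CPM in line 2 and the protease Pappa2 at 0.412 and 0.254 CPM in line 1 and 20 and 2.91 CPM in line 2. Each of these was near 0 in line 1 in both arms.

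Other lists are read against the shares over all tested genes, 4.31% higher and 10.7% lower in line 1, and 1.21% and 1.3% in line 2. Of 34 matrix and protease genes, 7 were higher and 6 lower in line 1, and 2 higher and 1 lower in line 2. Of 26 chemokines and cytokines, 1 was higher and 5 lower in line 1, and 1 higher and 1 lower in line 2. Of 20 BMP and Id genes, 2 were higher and 4 lower in line 1, and 0 higher and 2 lower in line 2. After the GC and length correction 2 were higher and 2 lower in line 1, and the median went from -0.14 to 0. Of 20 TGF-β target genes, 2 were higher and 2 lower in line 1, and 3 higher and 0 lower in line 2. Of 23 early response genes, 4 were higher and 3 lower in line 1, and 1 higher and 0 lower in line 2.

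Whether the response of dHD1_fl differed from the mean response of the other 3 genotypes was tested in the fit used for the Wnt3a response. By limma 0 genes were called (0.0%), and the unadjusted p was under 0.05 for 30. By edgeR 0 were called, and it was under 0.05 for 32. Axin2 was higher in dHD1_fl by 1.40 (SE 0.46, limma adjusted p = 1.0). Without line 2 the number called was 47, and without line 1 it was 0.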

How the data were processed

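RNA was sequenced as stranded mRNA libraries with single reads. Per the labels and the study's methods, the authors aligned reads with STAR to mm10, kept unique hits, and counted RefSeq genes with QuasR. Whether counting used strand is not given in the sources used here, so overlapping antisense genes cannot be told apart. The deposited values are CPM per gene, made by the authors. All CPM values (100.0%) gave whole reads within 0.05 read, and these recovered reads were used for edgeR, which called 2 genes for the Wnt3a response, 0 for the line difference and 0 against the other genotypes. Floors of 3 reads cover counting error only.

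Groups came from the labels. limma 3.58.1 (R 4.3.3) was fitted to log2(CPM + 1) of genes with at least 1 CPM in 2 libraries, with 12 group means over 27 libraries, a trend and robust empirical Bayes moderation. A gene was called when its adjusted p (Benjamini-Hochberg) did not exceed 0.05 and its log2 difference reached 1. Within a genotype, a replicate number marks the same cell line in each arm, so the numbers pair the arms, and deviations of libraries of the same line correlated at 0.509 to 0.94. edgeR was version 4.0.16. Scripts were tested on simulated data. The members and lists were chosen with earlier results of these data known. Genes were named by rule: Axin2, up to 10 called genes per direction and test, the 10 higher and 10 lower in both lines with the largest smaller difference, the 10 of line 1 alone and the 5 of line 2 alone in each direction with the largest difference, and list members as examples. Alternatives were another pseudocount, no filter, median-of-ratios scaling, other limits, edgeR, a replicate block and leaving out a line. The GC content and length correction (20 bins, genes of at least 5 CPM), its fit with the block, and edgeR with the block were chosen after seeing the data.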

Additional observations from a re-analysis of the deposited data

Results flagged for a closer look

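limma called a difference in the log2 response to Wnt3a between line 1 and line 2 for these genes, given as line 1 minus line 2. It was higher in line 1 for Asprv1 (6.15), Aldh3b2 (5.32), Endou (5.30), Krt78 (5.20), Golga7b (5.15), S100a7a (4.93), Csta1 (4.87), Calm4 (4.75), Crct1 (4.70) and Rptn (4.69). It was lower in line 1 for Sema5a (-3.62), Ndnf (-3.0), Col16a1 (-2.93), Hp (-2.82), Oas2 (-2.42), Magi2 (-2.23), Thbs2 (-1.92), Cmklr1 (-1.91) and B2m (-1.22). Each line had 1 library per treatment, so the test borrows its spread from the other 7 lines, which may share their origin, and holds none of dHD1_fl itself, and edgeR on the recovered reads called 0 of them. Crct1 had 1 and 823 reads in line 1, and Crct1, Csta1, Asprv1 and Rptn had 0 reads in both line 2 libraries. Krt78, Calm4, Hp and Oas2 had at most 5 reads in each line 2 library. In line 1, Ndnf had 0 reads in both libraries and Thbs2 had 4 and 3.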

How the results depend on the processing

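The 2 genes called for the Wnt3a response became 1 with a pseudocount of 0.1, 0 with the 4 libraries alone and 185 when p up to 0.05 without adjustment and 1.5-fold sufficed. Leaving out a line gave 5 to 83. With the replicate block, where cell line pairs the arms, 1 gene was called for the response (Axin2), also 1 with the GC correction added, and 0 against the other genotypes. edgeR with the replicate block called 2 genes, Axin2 and Asprv1, the latter named after its values were seen. The line difference takes no further block, since line is part of it. Its 72 calls became 14 with a pseudocount of 0.1, 144 with no filter, 0 with edgeR and 1392 when p up to 0.05 without adjustment and 1.5-fold sufficed. Hp reversed under edgeR, to 2.14 (adjusted p = 0.939). Against the other genotypes, 0 calls became 25 when p up to 0.05 without adjustment and 1.5-fold sufficed, and 0 to 47 when a line was left out.

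The 108 genes past the limit in both lines became 259 (123 higher and 136 lower) with a pseudocount of 0.1, 331 (147 and 184) at 1.5-fold and 31 (21 and 10) at 3-fold. The 1651 of line 1 alone became 2883 (672 and 2211) at 1.5-fold, 645 (218 and 427) at 3-fold and 940 after the GC and length correction, with 352 lower. Median-of-ratios scaling left 804 lower. It moved the median of all genes in line 1 from -0.16 to 0.02. The causes of these changes were not tested. With 1 library per line and treatment, the sizes within a line have no replicate error.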
